A study of Mus musculus with 4 samples.

Results

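The genes described here are 41 mouse genes that interferons induce or that carry the interferon signal, from *Gvin1* to *Nlrc5*. A probe belonged to them if its gene name in the array files was a listed symbol, and 63 probes of the 41174 distinct gene probes did, for all 41 genes. *Gvin1* was chosen by its log2 ratio in Axin2+ cells, the largest rise in an earlier analysis of these arrays, so that the Axin2 ratios are given as a description. Of the 41 genes, 39 were measured in each experiment, among 15291 genes measured on the *Rspo3* KO arrays and 15777 on the Axin2 arrays, where measured means that on both arrays the brightest probe of the gene rose well above background in 1 or both channels. *Mx1* was measured in neither experiment, *Nlrc5* was not measured on the *Rspo3* KO arrays, and *Irf5* was not measured on the Axin2 arrays.

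The study asked how the stromal Wnt enhancer R-spondin 3 and the Wnt-responsive cells of the colon crypt maintain the epithelium. In the first experiment, RNA from the colon of Myh11CreErt2/Rspo3 fl/fl mice (*Rspo3* KO), in which tamoxifen removes *Rspo3* from cells that express the smooth muscle and myofibroblast gene *Myh11*, was hybridised against RNA of Myh11CreErt2/Rspo3+/+ littermates (control, Rspo3++ in the labels). Each dual-color array compared 1 KO mouse with 1 control mouse, with the dyes reversed between the arrays, which gives 2 mouse pairs. In the second, epithelial cells of Axin2CreErt2/Rosa26-tdTomato mice were sorted 24 h after tamoxifen into tdTomato-positive cells (Axin2+) and tdTomato-negative cells (Axin2-), cells of 3 mice were pooled, and 2 arrays with reversed dyes carried the same pools, which is 1 replicate without a test. All mice were male C57BL/6 mice of 6 to 8 weeks that had received tamoxifen at 4 mg per 25 g body weight, the controls included. KO and control tissue was taken 2 weeks after tamoxifen. The labels name the distal colon and the methods the colon, and the schedule of tamoxifen on each array was not stated. The p-values measure the spread between these 2 mouse pairs only. KO was labelled with Cy5 in 1 pair and with Cy3 in the other, so mouse pair and dye cannot be told apart in that spread.

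Interferons of type I and type III are secreted when cells sense viral nucleic acid. Type I and type III interferons signal through the kinases *Jak1* and *Tyk2* to a complex that holds *Stat2* and *Irf9*, which binds the interferon-stimulated response element in the promoters of its targets, whereas targets of interferon gamma often carry the interferon-gamma activated site. The products of these targets bind or cleave viral RNA, modify proteins with *Isg15*, hold viruses at membranes, attack the vacuoles of intracellular pathogens and raise antigen presentation. In the intestine, part of this programme is expressed in the resting epithelium.

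The promoters of the genes on which the results turn are shown because most of the response passes through these elements. RefSeq (build GRCm38.p6) held promoter windows of 300 bases, from 250 bases before to 50 bases after the annotated start, for 33 of the 41 genes. The core of the interferon-stimulated response element was searched as GAAANNGAAA on both strands, and its matches are in capitals in the sequences below, which run 5′ to 3′ along the gene. *Isg15* lies at chr4:156200769-156201068, minus strand, *Ifit1* at chr19:34640639-34640938, plus strand, *Rsad2* at chr12:26456403-26456702, minus strand, *Ifitm3* at chr7:141010695-141010994, minus strand and *Oasl2*, shown as a window without a match, at chr5:114896684-114896983, plus strand.
Isg15: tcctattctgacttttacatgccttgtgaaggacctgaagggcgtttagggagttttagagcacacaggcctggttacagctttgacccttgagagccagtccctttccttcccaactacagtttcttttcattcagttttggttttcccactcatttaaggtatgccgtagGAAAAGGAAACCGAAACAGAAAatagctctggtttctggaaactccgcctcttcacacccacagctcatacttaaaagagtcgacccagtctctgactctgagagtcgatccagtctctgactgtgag
Ifit1: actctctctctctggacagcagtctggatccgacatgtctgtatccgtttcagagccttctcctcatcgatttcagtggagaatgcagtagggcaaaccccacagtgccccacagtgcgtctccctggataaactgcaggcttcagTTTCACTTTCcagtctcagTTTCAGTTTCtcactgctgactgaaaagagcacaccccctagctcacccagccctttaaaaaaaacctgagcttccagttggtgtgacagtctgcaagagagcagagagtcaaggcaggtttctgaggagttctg
Rsad2: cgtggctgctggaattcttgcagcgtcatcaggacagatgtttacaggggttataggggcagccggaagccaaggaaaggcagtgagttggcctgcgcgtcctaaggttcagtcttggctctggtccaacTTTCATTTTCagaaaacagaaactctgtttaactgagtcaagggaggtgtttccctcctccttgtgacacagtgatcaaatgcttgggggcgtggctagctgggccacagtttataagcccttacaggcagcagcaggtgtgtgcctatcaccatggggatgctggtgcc
Ifitm3: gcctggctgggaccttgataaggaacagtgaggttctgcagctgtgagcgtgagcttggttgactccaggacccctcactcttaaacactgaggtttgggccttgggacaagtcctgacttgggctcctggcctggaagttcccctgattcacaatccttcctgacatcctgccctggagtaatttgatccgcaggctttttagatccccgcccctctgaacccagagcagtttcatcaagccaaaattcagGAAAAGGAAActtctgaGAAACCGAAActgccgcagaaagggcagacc
Oasl2: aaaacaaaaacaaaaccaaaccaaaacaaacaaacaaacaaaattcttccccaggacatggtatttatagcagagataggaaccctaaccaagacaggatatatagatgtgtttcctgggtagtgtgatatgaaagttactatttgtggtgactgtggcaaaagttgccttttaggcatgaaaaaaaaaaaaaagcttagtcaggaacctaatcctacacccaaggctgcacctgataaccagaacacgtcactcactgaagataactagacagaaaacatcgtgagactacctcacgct

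The *Isg15* window held 3 overlapping matches between positions -78 and -57, counted from the start as 0. *Ifit1* held 2 matches, from -104 to -95 and from -85 to -76, and *Rsad2* held 1, from -120 to -111. In *Ifitm3*, both matches lay after the start, from 2 to 11 and from 19 to 28. The core was found in 17 of the 33 genes with a window (51.5%), against 3.99% of the 27025 genes in the whole table and 3.44% of its 32851 windows. The interferon-gamma activated site, searched as TTCNNNGAA, which reads the same on both strands, was found in 11 of the 33 genes (33.3%), against 9.55% of all genes in the table. A match describes the letters of a window and not a bound site, and the 2 motifs overlapped in single windows, as at *Bst2* and *Ifitm3*. No window was held for *Gbp6*, *Gvin1*, *Iigp1*, *Mx1*, *Mx2*, *Nlrc5*, *Oas2* and *Usp18*.

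**Figure D1:**
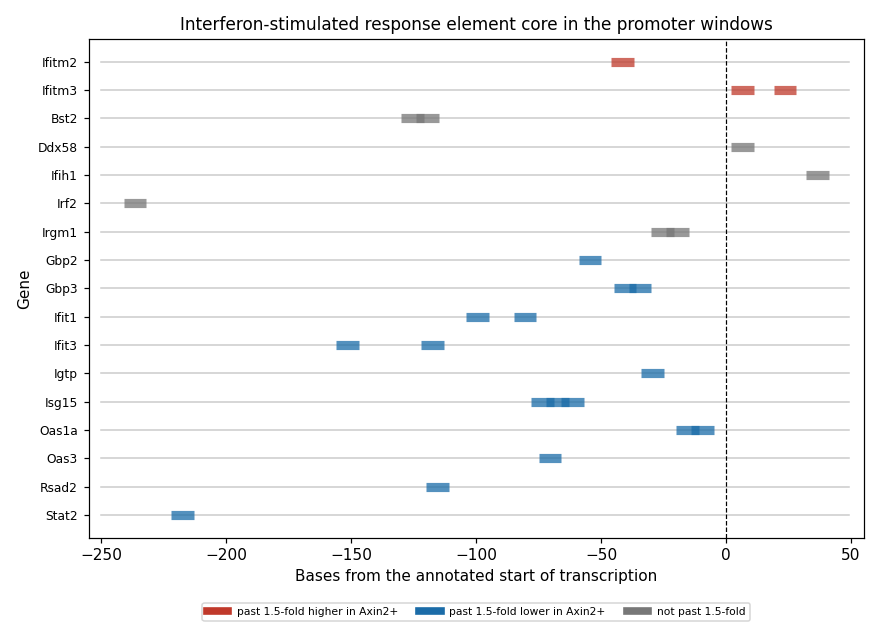
Positions of the core of the interferon-stimulated response element in the promoter windows of the 17 genes that hold it, in bases from the annotated start (dashed line at 0). Each bar is 1 match, darker where matches overlap, and the colour gives the direction of the gene in Axin2+ cells, with matches of 10 genes lower in Axin2+ cells lying before the start.

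*Gvin1* encodes a very large interferon-inducible GTPase. Its 3 probes of 60 bases are shown by their first 30 bases because their ratios carry the rise in Axin2+ cells, and the order is that of their mean ratio there.
Gvin1 probe 1: ttcctggattttgtgatctagagacatagt
Gvin1 probe 2: ggctcaagctcactcctgctatctctgtca
Gvin1 probe 3: caataaagatgttagagctcacttgttgga

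The older annotation of the array, in the *Rspo3* KO files, places these probes on the minus strand of mm9 at chr7:113300952-113301011, chr7:113302432-113302491 and chr7:113300435-113300494. The newer annotation, in the *Axin2* files, places all of them 256 kb away, at chr7:113044535-113044594, chr7:113046015-113046074 and chr7:113044018-113044077. In RefSeq (GRCm38.p6), *Gvin1* lies at chr7:106156535-106215340 and *Gm4070*, which carries the older name VLIG-1 as *Gvin1* does, at chr7:105895118-105953967, with *Gm8995* and *Gm1966* on the other side of *Gvin1*. The files alone do not assign these probes to 1 gene, and *Gvin1* below stands for what its 3 probes bind.

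In Axin2+ cells, *Gvin1* was far higher and most antiviral effectors were lower than in Axin2- cells. The log2 ratio of *Gvin1* was 2.66 on array 1 and 2.65 on array 2, which is 6.30-fold by the mean. Both arrays agreed to within 0.00853 on the log2 scale for this probe, the largest mean ratio of all 15777 genes measured, which is the value that chose the gene. The other probes of *Gvin1* gave 1.72 and 2.08 (probe 2) and 1.60 and 1.80 (probe 3), so that all 3 were higher on both arrays. A probe of *Gm1966* that was well above background gave 1.71 and 1.98, and the probes of *Gm8995* were not well above background in these cells.

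Genes were counted as past 1.5-fold, the fold change the study used, if their mean ratio reached it and both arrays had the same sign. By this count 3 of the 39 measured genes were higher in Axin2+ cells (7.69%, against 7.84% of all genes) and 16 were lower (41%, against 6.97% of all genes). As the genes were listed with these ratios known, nothing is read from these shares. The median log2 ratio of the 39 genes was -0.42 on array 1 and -0.50 on array 2, against 0.02 and -0.03 for all genes, and 28 of the 39 were lower on both arrays (71.8%, against 41.8% of all genes). Besides *Gvin1*, the genes past 1.5-fold higher were *Ifitm3* and *Ifitm2*, membrane proteins that block the entry of viruses. *Ifitm3* was higher by 1.17 and 0.90 on the log2 scale, or 2.05-fold by the mean. *Ifitm2* was higher by 0.82 and 0.50 with its brighter probe. The other probe named *Ifitm2* gave 0.90 and 0.63, but the files place it on the other strand, 94.1 Mb from the brighter one. The close relative *Ifitm1* gave -0.32 and -0.36 and was not past 1.5-fold.

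**Figure D2:**
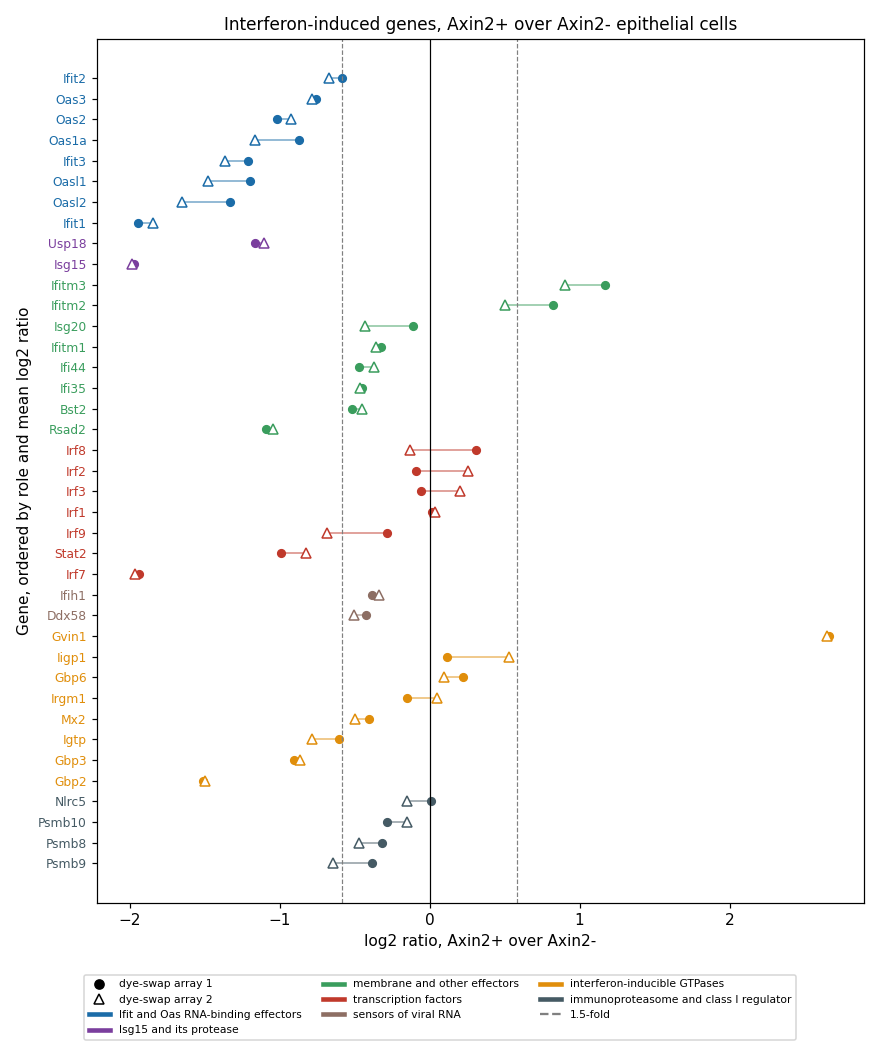
Log2 ratio of Axin2+ over Axin2- cells on both dye-swap arrays (circles and triangles) for the 39 interferon-induced genes measured, coloured by role, with lines joining the 2 arrays of a gene and dashed lines at 1.5-fold. *Gvin1* stands alone at 2.66 on the right, the Ifit and Oas genes and *Isg15* lie left of the lower dashed line by their means, with *Ifit2* at the line on array 1 (-0.58), and *Isg15* reaches -1.98.

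The Ifit and Oas genes were lower on both arrays. The Ifit proteins bind foreign 5′ ends of RNA and the Oas proteins activate RNA cleavage or, as Oasl proteins, modulate RNA sensing, and 8 of the 8 measured were past 1.5-fold lower in Axin2+ cells. *Ifit1* gave log2 ratios of -1.94 and -1.85, which is 3.71-fold lower by the mean. With the log ratios of the array software, which differ in background correction, *Ifit1* was at -3.75, *Ifit3* at -2.59, *Ifit2* at -2.45 and *Oas3* at -1.87. *Oasl2* gave -1.33 and -1.65, *Oasl1* -1.20 and -1.48, and *Ifit3* -1.21 and -1.36. Among the Oas enzymes, *Oas1a* gave -0.87 and -1.16, *Oas2* -1.02 and -0.93, and *Oas3* -0.76 and -0.79. *Ifit2*, at -0.58 and -0.67, was the measured gene just inside the 1.5-fold limit of 0.58, and it was not well above background in the Axin2+ channel of array 2. Its other probe gave -0.45 by the mean, so that *Ifit2* was no longer past the limit with the mean over probes (-0.54), and it was not past it on array 1 alone. With median centring *Oas1a* had opposite signs on the arrays.

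*Isg15*, a ubiquitin-like modifier, gave -1.97 and -1.98, which is 3.94-fold lower in Axin2+ cells, and -2.49 with the log ratios of the software. *Usp18*, the protease that removes *Isg15* from proteins and dampens the interferon receptor, gave -1.17 and -1.11. Both were thus lower on both arrays. *Rsad2* (viperin), which makes a nucleotide that stops viral polymerases, gave -1.09 and -1.04 with its brightest probe, and its 3 probes ranged from -1.07 to -0.21 by the mean, all lower.

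Among the transcription factors, 2 of the 7 measured were past 1.5-fold lower. *Irf7*, which amplifies the type I response and is itself induced by it, was 3.86-fold lower in Axin2+ cells, with log2 ratios of -1.93 and -1.96. *Stat2*, a subunit of the complex that binds the response element, gave -0.99 and -0.82, and its partner *Irf9* gave -0.29 and -0.68 and was not past 1.5-fold. The factors *Irf1*, *Irf2*, *Irf3* and *Irf8* had means between 0.03 and 0.09 on the log2 scale, and 3 of these 4 genes, all but *Irf1*, had opposite signs on the arrays. *Irf1* and *Irf8* each had 1 probe above and 1 below 0 by the mean, at 0.03 and -0.06 for *Irf1* and at 0.09 and -0.08 for *Irf8*.

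The interferon-inducible GTPases were the group with the widest range, from -1.50 to 2.66 by the mean. *Gbp2*, a guanylate-binding protein that attacks pathogen vacuoles, gave -1.51 and -1.49, or 2.84-fold lower in Axin2+ cells. *Gbp3* gave -0.91 and -0.86, and *Igtp*, an immunity-related GTPase, gave -0.61 and -0.78. *Gbp6* and *Iigp1* were above 0 on both arrays but below 1.5-fold, and *Irgm1* had opposite signs. The spread of this group thus came from *Gvin1* on the upper side and *Gbp2* on the lower.

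The sensors of viral RNA and the antigen-presentation genes stayed inside 1.5-fold. *Ifih1* (MDA5) gave -0.38 and -0.34. *Ddx58* (RIG-I) gave -0.42 and -0.50 with its brightest probe, whereas its 4 probes ranged from -0.46 to 0.13. The immunoproteasome subunits *Psmb8*, *Psmb9* and *Psmb10*, which cut peptides for class I presentation, were lower on both arrays, with means between -0.51 and -0.22, and *Psmb9* was the gene just outside the limit. *Nlrc5*, which switches on the class I genes, gave 0.0078 and -0.15. *Ifi44* gave -0.47 and -0.37, and its dimmer probe 0.10 by the mean. The remaining members (*Bst2*, *Ifi35*, *Isg20* and *Mx2*) were lower on both arrays and inside 1.5-fold, with means between -0.49 and -0.27.

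Of the 14 genes that were lower in Axin2+ cells past 1.5-fold and had a promoter window, 10 held the core of the response element, and *Ifit2*, *Irf7*, *Oasl1* and *Oasl2* did not. Both genes that were higher and had a window, *Ifitm2* and *Ifitm3*, held it as well. Among the 16 genes with a window that were not past 1.5-fold, 5 held it. These shares are descriptions without a test.

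Other genes of the pathway were read from fixed lists. Of 11 interferon ligand genes, 9 were named on the array, and 2 were measured in the sorted cells, *Ifnz* at -0.14 and -0.21 and *Ifna5* at -0.05 and -0.13. *Ifnb1*, *Ifng* and the other ligands were not measured in either experiment. All 10 receptor and kinase genes were measured in the sorted cells, and 2 were past 1.5-fold lower, *Ifnlr1* and *Il10rb*, which form the type III interferon receptor, at -0.49 and -0.72 and at -0.64 and -0.57. Of 12 measured sensing genes, 3 were past 1.5-fold lower, with *Zbp1*, a sensor of Z-form nucleic acid, at -1.82 and -1.78, and of 42 other interferon-induced genes 11 were past it lower and 1 higher. Of all genes, 6.97% were past 1.5-fold lower and 7.84% higher.

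The marker genes of the sort moved with these ratios. All 9 epithelium markers were well above background in every channel, 4 or 5 of 10 fibroblast and smooth muscle markers and 1 or 2 of 6 endothelium markers. *Axin2* itself was higher by 1.35 and 1.30, and 7 of 9 crypt base and cycling markers were past 1.5-fold higher. All 8 surface enterocyte markers were past 1.5-fold lower, with a median of -2.63. Of 8 goblet cell markers 7 were lower on both arrays and 6 past 1.5-fold lower. The log2 of the summed level of the surface enterocyte markers was 17.3 and 17.0 in the Axin2- channels and 15.2 and 14.9 in the Axin2+ channels, and that of the crypt base markers was 12.3 and 12.3 against 13.6 and 13.6. Of the macrophage and dendritic cell markers between 5 and 8 of 11 were well above background per channel, with summed levels of 11.1 in both Axin2+ channels and 11.2 in both Axin2- channels, and *Lyz2* was past 1.5-fold lower at -1.62 and -1.58. Of 10 measured T cell and NK cell markers 7 were lower on both arrays and 2 past 1.5-fold, *Gzma* at -1.19 and -1.02 and *Nkg7* at -0.65 and -0.79, with summed levels of 10.70 in both Axin2+ channels and 10.87 and 10.99 in the Axin2- channels. The part of these differences in cell type in the ratios of the interferon-induced genes was not tested. In such pooled RNA, fewer cells of a type and less RNA per cell cannot be told apart.

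On the *Rspo3* KO arrays the target gene was examined first. The brighter *Rspo3* probe gave log2 ratios of 0.10 and 0.17 and was well above background on array 2 alone, and the other probe was not well above background on either array, so that a loss of *Rspo3* was not visible, and whether these probes lie in the deleted part was not analysed here. *Lgr5*, the stem cell gene that depends on this signal, was at least 3.85-fold lower in the channels labelled *Rspo3* KO, where it was not well above background, with log2 ratios of -1.28 and -2.61 (limma, adjusted p = 0.1). *Axin2* gave -0.45 and -0.26. Over all genes, the ratios of the 2 mouse pairs correlated with a Pearson r of 0.03 and a Spearman rho of -0.12, against 0.92 and 0.87 for the dye swap of the sorted cells, a description across genes that are not independent.

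In the colon of *Rspo3* KO mice, some interferon-induced genes were higher in both mouse pairs and *Gvin1* was lower in both. None of them passed the test across all genes. With limma and Benjamini-Hochberg adjustment over 15291 genes, 0 of the 39 measured genes were called, against 0.229% of all genes (35 of 15291). At an unadjusted p under 0.05 there were 6 of the 39 genes and 707 of all genes. Past 1.5-fold alike in both pairs, 4 of the 39 genes were higher (10.3%, against 1.84% of all genes) and 1 was lower (2.56%, against 2.46% of all genes, so that this count is at the background). In pair 1 alone 5 genes were past 1.5-fold higher and 3 lower, in pair 2 alone 14 higher and 2 lower, and with median centring 5 higher and 0 lower in both pairs. In 1 pair alone no agreement of signs can be asked. The shares over all genes at these settings were not computed, so nothing is read from these counts. Counted by any amount, 14 of the 39 genes were higher in both pairs (35.9%, against 20.3% of all genes). As the genes were listed with earlier results of these data known, nothing is read from the shares given here or below for these arrays.

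The 4 genes past 1.5-fold higher were *Ifit1*, *Rsad2*, *Oasl2* and *Isg15*. The log2 ratio of *Ifit1* was 0.62 in pair 1 and 1.94 in pair 2, a mean of 1.28 ± 0.93 (SD, n = 2 pairs; limma, adjusted p = 0.415). Its log2 signal was 9.52 and 10.2 in the KO channels and 8.91 and 8.30 in the control channels. *Rsad2* gave 0.85 and 1.43, a mean of 1.14 ± 0.41 (SD, n = 2; limma, adjusted p = 0.268), and all 3 of its probes were higher, from 0.64 to 1.14 by the mean. *Oasl2* gave 0.80 and 1.31, a mean of 1.05 ± 0.36 (SD, n = 2; limma, adjusted p = 0.314). *Isg15* differed least between the pairs, at 0.76 and 0.90, a mean of 0.83 ± 0.10 (SD, n = 2; limma, adjusted p = 0.504). For each of these genes both KO channels were above both control channels, as they were for 13 of the 39 genes (33.3%, against 12.6% of all genes).

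*Gvin1* went the other way. Its log2 ratio was -0.45 in pair 1 and -1.03 in pair 2, a mean of -0.74 ± 0.41 (SD, n = 2; limma, adjusted p = 0.765), or 1.67-fold lower in the channels labelled *Rspo3* KO. The KO channels gave log2 signals of 12.5 and 12.5 and the control channels 13.0 and 13.6, and both KO channels lay below both control channels, as for 3 of the 39 genes (7.69%, against 15.6% of all genes). The other probes gave -0.65 and -0.40 (probe 2) and -0.04 and -0.46 (probe 3), all below 0. With the mean over the 3 probes *Gvin1* was at -0.50 and no longer past 1.5-fold, and in pair 1 alone it was not past it either. The *Gm1966* probe above background gave -0.55 and -0.38. On these arrays probes of *Gm8995* were also well above background. They gave 0.01 and -0.28 for one and -0.18 and 0.02 for the other, with opposite signs in the pairs.

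**Figure D3:**
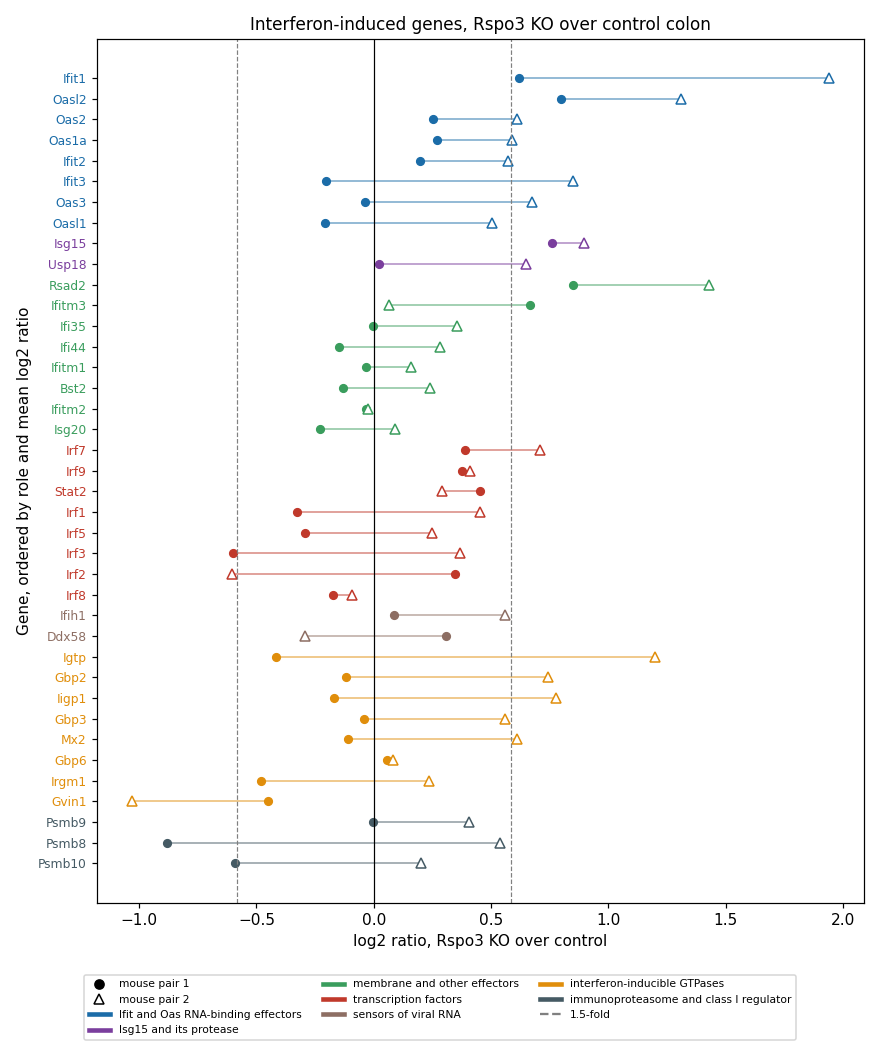
Log2 ratio of *Rspo3* KO over control colon in mouse pair 1 (circles) and pair 2 (triangles) for the 39 interferon-induced genes measured, coloured by role, with dashed lines at 1.5-fold. *Ifit1*, *Oasl2*, *Isg15* and *Rsad2* are right of the upper dashed line in both pairs, *Gvin1* is left of 0 in both, and the GTPases and immunoproteasome genes mostly straddle 0.

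The ratio was higher in pair 2 than in pair 1 for 34 of the 39 genes (87.2%, against 49% of all genes). The pairs also differed in dye, with KO in Cy5 in pair 1 and in Cy3 in pair 2. Differences between mice and between dyes therefore cannot be told apart here. In pair 2, 34 of the 39 genes were higher in the KO channel (87.2%, against 46.8% of all genes), and in pair 1 it was 16 of the 39 (41%, against 49.7% of all genes). The median log2 ratio of the 39 genes was -0.03 in pair 1 and 0.45 in pair 2, and the median absolute difference between the pairs was 0.58 on the log2 scale for these genes and 0.35 for all genes. Signs were opposite for 22 of the 39 genes (56.4%, against 55.9% of all genes, so that this count is at the background).

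All 3 immunoproteasome genes had opposite signs, with *Psmb8* at -0.88 and 0.54, *Psmb10* at -0.59 and 0.20, and *Psmb9* at -0.0029 and 0.41. Of the 8 GTPases, 6 had opposite signs, with *Igtp* at -0.42 and 1.20 and *Iigp1* at -0.17 and 0.78. *Irf1*, which drives many interferon gamma targets, gave -0.33 and 0.45, and its other probe also changed sign. *Irf3* gave -0.60 and 0.37 and *Irf2* 0.35 and -0.60. Each of these values belongs to 1 pair of mice, and no gene of these groups was past 1.5-fold alike except *Gvin1*.

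*Irf7*, *Stat2* and *Irf9* were above 0 in both pairs and not past 1.5-fold. *Irf7* gave 0.39 and 0.71, a mean of 0.55 ± 0.22 (SD, n = 2; limma, adjusted p = 1), and lay just outside the limit. The subunits of the complex that binds the response element gave 0.45 and 0.29 (*Stat2*) and 0.38 and 0.41 (*Irf9*). Of the 8 Ifit and Oas genes, 5 were above 0 in both pairs and 3 (*Ifit3*, *Oas3* and *Oasl1*) changed sign, and the group's means lay between 0.15 and 1.28. *Usp18* gave 0.02 and 0.65.

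Apart from *Rsad2*, no gene of the membrane and other effectors was past 1.5-fold alike in both pairs. *Ifitm3* was above 0 in both pairs, at 0.67 and 0.06. *Ifitm2* gave -0.03 in both pairs with its brighter probe, whereas the other probe of that name gave -0.37 and 0.43, or 0.03 by the mean. The probes of *Isg20* and *Ddx58* also differed in sign by the mean, at -0.07 and 0.03 for *Isg20* and at 0.01 and -0.18 for *Ddx58*, all close to 0.

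In the fixed lists, 5 of 45 other interferon-induced genes were past 1.5-fold higher (against 1.84% of all genes) and 0 lower (against 2.46%), none called by limma. They were *Cxcl10*, a chemokine that attracts T cells, at 1.04 and 2.24, *Rtp4* at 1.07 and 1.15, *Eif2ak2* (PKR) at 1.52 and 0.29, *Slfn5* at 0.82 and 0.46, and *Lgals3bp* at 0.53 and 0.72. None of 9 measured receptor and kinase genes, 13 sensing genes or 5 feedback genes was past 1.5-fold alike, and of the ligands *Ifnz* alone was measured, at -0.21 and -0.15.

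Markers of other cells moved beside these ratios. Of 8 measured B cell markers, 7 were lower in both pairs and 5 past 1.5-fold, with *Ms4a1* at -2.75 and -2.27 (limma, adjusted p = 0.0139), and 4 of the 10 markers were well above background in each KO channel and 8 in each control channel. The log2 of the summed level of the B cell markers was 15.5 and 15.0 in the KO channels and 15.2 and 15.7 in the control channels, which overlap. Of 10 macrophage and dendritic cell markers 7 were higher in both pairs, with *Adgre1* past 1.5-fold, and their summed level was 14.1 and 13.9 in the KO channels and 14.0 and 13.7 in the control channels. Of 9 measured fibroblast and smooth muscle markers 5 were higher in both pairs and 0 lower, with a median of 0.24 on the log2 scale and 0 past 1.5-fold, and of 9 measured T cell and NK cell markers 5 were lower in both pairs. Of 9 crypt base markers, 7 were lower in both pairs. Of 5 measured surface enterocyte markers 0 were higher and 1 lower in both pairs. Their summed level was 15.6 and 16.6 in the KO channels and 15.0 and 16.3 in the control channels. Of 5 measured goblet cell markers 1 was higher and 1 lower in both pairs. Of 5 measured epithelium markers, *Cdx2* alone was higher in both pairs, at 2.33 and 1.91 (limma, adjusted p = 0.0207), and 0 were lower. *Epcam*, *Cdh1*, *Krt8* and *Vil1* had opposite signs in the pairs. The median of the 5 epithelium markers was -0.01 on the log2 scale. The part of these cell type markers in the ratios of the interferon-induced genes was not tested. Of the 10 fibroblast and smooth muscle markers between 8 and 10 were well above background in each channel, as were all 6 endothelium markers, so that the RNA was not of epithelium alone.

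**Figure D4:**
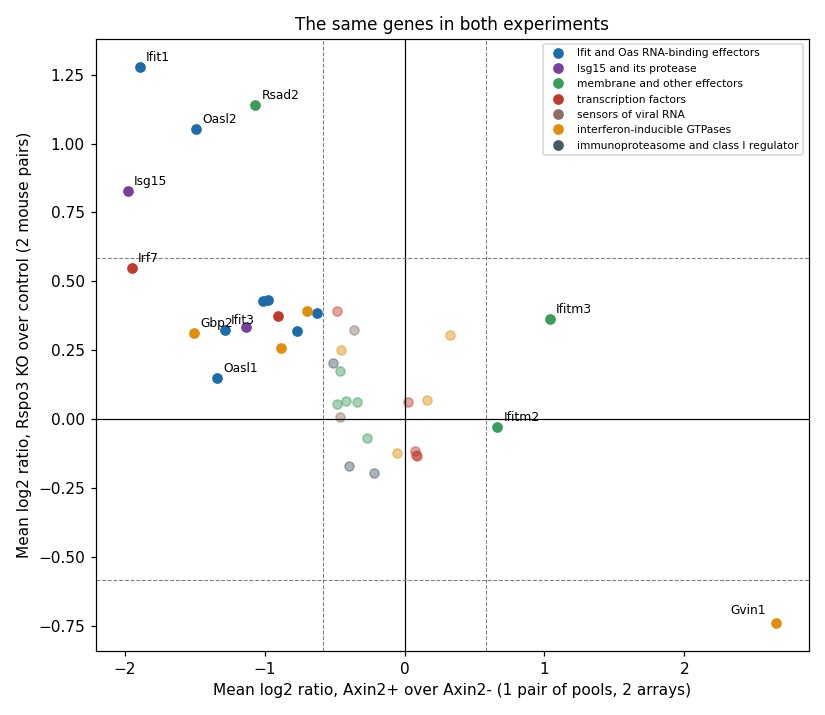
Mean log2 ratio of *Rspo3* KO over control (vertical, mean of 2 mouse pairs) against that of Axin2+ over Axin2- cells (horizontal, mean of 2 arrays of the same pools) for the 38 genes measured in both, with dashed lines at 1.5-fold and colours by role. *Ifit1*, *Rsad2*, *Oasl2* and *Isg15* lie in the upper left and *Gvin1* is the only gene beyond both 1.5-fold lines in the lower right.

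Set side by side, the 5 genes past 1.5-fold alike in *Rspo3* KO colon were also past it in Axin2+ cells, each in the opposite direction. The share of all genes with such a reversal was not computed. Opposite directions were also seen outside these genes. Of 9 crypt base markers, 7 were lower in both pairs of *Rspo3* KO colon and 8 were higher on both arrays of Axin2+ cells. *Isg15* was 1.78-fold higher in *Rspo3* KO colon and 3.94-fold lower in Axin2+ cells. For *Ifit1* these values were 2.43-fold and 3.71-fold, for *Rsad2* 2.20-fold and 2.09-fold, and for *Oasl2* 2.07-fold and 2.81-fold. *Gvin1* was 1.67-fold lower in *Rspo3* KO colon and 6.30-fold higher in Axin2+ cells. Of the 38 genes measured in both experiments, 25 had a mean above 0 in *Rspo3* KO colon and below 0 in Axin2+ cells (65.8%, against 26% of the 13553 genes measured in both), 5 had the reverse (13.2%, against 30.5%), 4 were above 0 in both and 4 below 0 in both. *Ifit2* and *Psmb8* were read by different probes in the 2 experiments. As the genes were listed with these ratios known, nothing is read from these counts. The difference between the experiments was not tested, since the sorted cells are 1 replicate and the tissues differ.

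**Figure D5:**
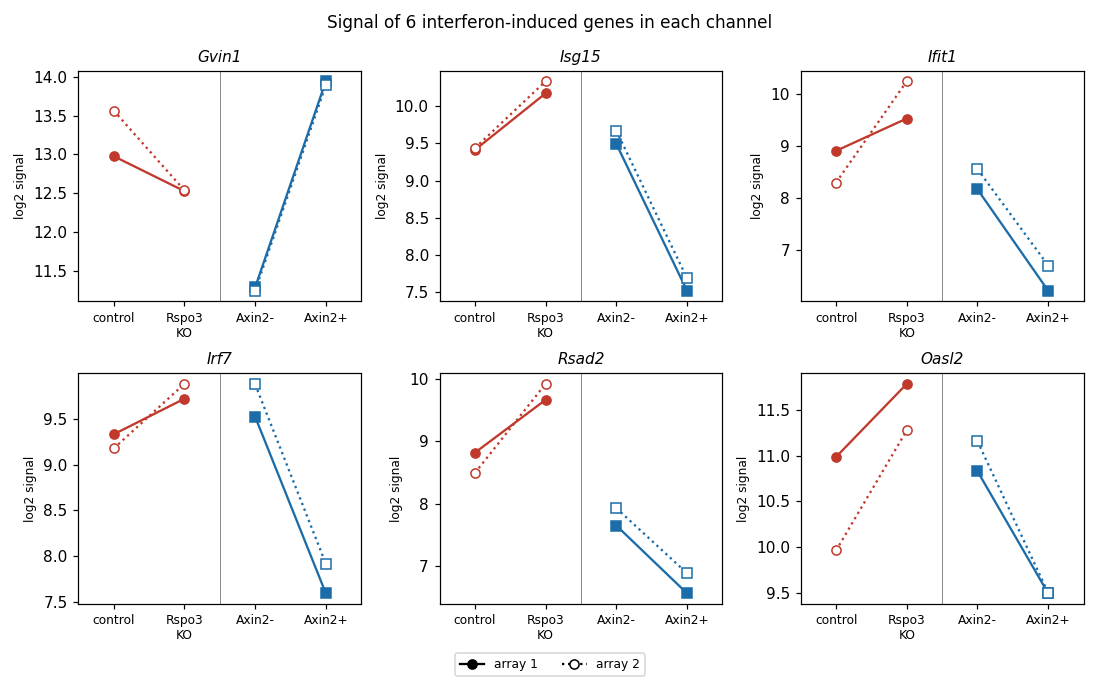
Log2 signal of 6 interferon-induced genes in each channel, with control and *Rspo3* KO joined within a mouse pair (red) and Axin2- and Axin2+ joined within an array (blue), each gene on its own scale. The 2 experiments were scaled separately, so only joined points are to be compared, and *Gvin1* shows slopes opposite to those of the other genes in both experiments.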

How the data were processed

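Agilent dual-color whole mouse genome arrays were read from the files of the feature extraction software (version 11.5.1.1). The authors deposited, per spot, mean and background signal intensity (linear) for both dyes and a log10 ratio of Cy5 to Cy3 that the software had corrected for background and dye, and the series' table of values repeats this ratio. The software's p-value was not used.

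With limma (version 3.58.1, R version 4.3.3), background was removed by normexp with an offset of 50, fitted without the spots whose background was an outlier (66 and 6 on the *Rspo3* KO arrays), and log2 ratios were normalised by loess (span 0.3) within each array. Control spots and outlier spots (124 to 510 per array) were left out. Ratios were turned to *Rspo3* KO over control and Axin2+ over Axin2- by the dyes in the labels. Probes were named through both annotation versions of the files and a RefSeq table (GRCm38.p6), with 28473 of 41174 probes named by accession, 5512 by symbol, 356 by synonym and 6833 by the name in the files. Each gene took its brightest probe. Between 53.1% and 60.3% of gene spots per channel stood well above background, and no spot of the interferon-induced genes was saturated or an outlier. The number of arrays limits the precision. Channel signals were scaled with limma's Aquantile method within an experiment.

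*Rspo3* KO ratios were tested against 0 with limma (lmFit and eBayes) over all genes, with Benjamini-Hochberg adjustment and a threshold of 0.05, and the script was tested on simulated data. With 2 arrays, the test leans on a prior of 6.77 degrees of freedom. The Axin2 arrays hold the same pools and were not tested. The genes, lists and rules were chosen with earlier results of these data known. Given in full are *Gvin1*, genes past 1.5-fold alike on both arrays, genes called by limma and genes whose probes disagree in direction, and the others by range. Of genes outside the list, *Rspo3*, *Axin2*, *Lgr5*, ligands, receptors and up to 10 genes past 1.5-fold were to be named, apart from an item not reported here, and *Gm1966*, *Gm8995* and *Gm4070* were added after their values were seen because the annotation versions place the *Gvin1* probes differently. Alternatives were other background corrections (none, an offset of 16, a fit to all spots), median centring, the software's ratios, the series' table, error-weighted ratios, other filters on dim probes, the mean over probes, a 2-fold limit, a shorter motif and each array left out.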

Additional observations from a re-analysis of the deposited data

How the results depend on the processing

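No interferon-induced gene was called by limma under any of the 9 alternatives in which the test was run, in which the lowest adjusted p of such a gene lay between 0.0663 (*Rsad2*, offset of 16) and 1. Of the genes past 1.5-fold, none changed direction under any alternative. With the software's log ratios, and equally with the series' table, 8 genes were past 1.5-fold in *Rspo3* KO colon, 7 higher (*Ifit2*, *Irf7* and *Oas2* added) and 1 lower, and with their error-weighted mean also 8, of which 7 were higher. Median centring left 0 lower in *Rspo3* KO colon (*Gvin1* then differed in sign between the pairs) and 1 higher in Axin2+ cells (*Gvin1*, since *Ifitm2* and *Ifitm3* were lost), and 14 of the 16 lower (*Igtp* and *Oas1a* were lost). The mean over probes left 0 lower in *Rspo3* KO colon. *Ifit2* was lost in Axin2+ cells with the mean over probes, with the filter on both channels and without replicate 2, which each left 15 lower. At 2-fold, 3 genes were past the limit in *Rspo3* KO colon, 3 higher and 0 lower, and 12 in Axin2+ cells, 10 of them lower.

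Leaving out 1 array leaves no test. The number past 1.5-fold in *Rspo3* KO colon was then between 8 and 16, with 5 to 14 higher and 2 to 3 lower. The 4 genes higher in both pairs remained past it in either pair, and *Gvin1* was lost without replicate 2. For the Axin2 arrays the number was between 18 and 20, with 2 to 3 higher and 15 to 18 lower. Shares over all genes past 1.5-fold were not computed for the alternatives, so nothing is read from a change in these counts. Ratios of dim genes in Axin2+ cells depend on the background correction, and with the software's log ratios *Ifit1* was at -3.75, *Ifit2* at -2.45 and *Rsad2* at -2.12. With the shorter core GAAANNGA 63.6% of the 33 genes held a match, against 23.4% of all genes. No paired analysis was possible because each array already compares 1 pair and the ratio is the paired value. A slide block was not run because each experiment has 1 slide only.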
